A study of Homo sapiens with 18 samples.

Results

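The ERBB receptors, their EGF-like ligands and the feedback inhibitor ERRFI1 were followed on 18 Affymetrix human genome U133 Plus2 arrays of SKOV-3 cells, an established line from a human ovarian carcinoma. The genes were chosen with earlier results of these data known. They were EGFR, ERBB2, ERBB3 and ERBB4 (receptors), HBEGF, EREG, AREG, TGFA and NRG1 (ligands) and ERRFI1. Their probe sets were taken by gene symbol alone. They comprised 37 of the 54675 probe sets of the array and 9 of the 10 genes, since the annotation used here listed no probe set under AREG alone, and AREG was not analysed here. EGFR had 9 probe sets, NRG1 6, ERBB3 5, ERBB4 and HBEGF 4 each, ERBB2 and TGFA 3 each, EREG 2 and ERRFI1 1.

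The arrays formed 6 groups of 3. LHR+ cells, stably transfected to express the luteinizing hormone receptor (LHR), were incubated with LH at 50 ng/ml for 1 h (LH1), 4 h (LH4), 8 h (LH8) or 20 h (LH20), and were also assayed without LH (LHR+). LHR- cells did not carry the receptor. In the study they are parental cells in one place and mock-transfected cells in another, so transfection and selection cannot be told apart from the receptor in LHR+/LHR-. Whether the LHR+ cells were 1 clone is not given in the sources used here. There was 1 LHR+ group without LH, shared by every comparison of LH with no LH, and time in culture cannot be told apart from LH. The study's methods call the replicates independent and the labels only number them, so the p-values measure the spread between these samples.

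ERBB receptors are tyrosine kinases of the cell surface that signal as pairs. EGF-like ligands are made as membrane-bound precursors, are shed by ADAM proteases, and bind with preference, HBEGF, EREG, AREG and TGFA to EGFR (HBEGF and EREG to ERBB4 as well) and NRG1 to ERBB3 and ERBB4. ERBB2 has no known ligand of its own and pairs with the others, ERBB3 has little kinase activity, and ERRFI1 (also called MIG6) binds the kinase domain and blocks it. In the ovarian follicle, LH raises EGF-like ligands in granulosa cells, and these carry its signal to neighbouring cells through EGFR.

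Values are the authors' probe set intensities on a linear scale, in arbitrary units. Fold changes are differences of mean log2(intensity + 1), with limma's standard error (SE) and a Benjamini-Hochberg adjusted p over all 54675 probe sets. A probe set was called, and is said to have risen or fallen, where p was under 0.05, the adjusted p under 0.1, the fold change at least 2 and the 3 arrays of one group all lay above the 3 of the other. Levels of different probe sets are not compared, because their probes differ in brightness. The added 1 makes fold changes of dim probe sets too small.

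Array medians lay between 46.9 and 57.9, and 31.0 to 34.5% of the values on an array were under 16, a range in which replicates often differed by several fold. No pair of arrays held identical values, and for 13 of 18 arrays the nearest array was of the same group. Epithelial keratins were bright on all arrays (KRT7 6791 to 9947, KRT8 4034 to 6230), as was PAX8 (1786 to 3716), while MUC16 (0.564 to 6.53) and MSLN (1.33 to 29.8) were dim. The summed level of the 11 epithelial markers was 21882 to 23823 in LHR+ cells, 30833 to 32017 in LH20 cells and 24455 to 27245 in LHR- cells. Bright probe sets such as those of the keratins carry this sum, and dim markers hardly enter it. The LHCGR probe set gave 0.196 to 4.11 in the 15 arrays of transfected cells and 0.383 to 0.978 in the LHR- arrays, so it did not register the transfected receptor, and whether its probes match the transfected cDNA is not given in the sources used here. The labels were thus not checked by the targeted gene.

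The windows of 250 bases before the start sites of HBEGF, ERBB2 and ERBB4 are shown because probe sets of these genes gave calls that survived most changes of the processing. NRG1 also gave such calls, and its windows are not used here. LH raises cyclic AMP in the LHR+ cells, according to the study's methods, so the windows were searched for the core of the cyclic AMP response element (CRE core), TGACG. The full element, TGACGTCA, contains the core on both strands and was counted separately. The AP-1 site was searched as TGANTCA, where N is any base, and the GC box, to which SP1 binds, as GGGCGG. Also searched were the CCAAT box by those letters and the TATA box as TATAAA. Each motif was searched on both strands. The sequences are from RefSeq, build GRCh38.p14, 5′ to 3′ on the strand of the gene, and capitals mark every match.
HBEGF, chr5:140346604-140346853, minus strand: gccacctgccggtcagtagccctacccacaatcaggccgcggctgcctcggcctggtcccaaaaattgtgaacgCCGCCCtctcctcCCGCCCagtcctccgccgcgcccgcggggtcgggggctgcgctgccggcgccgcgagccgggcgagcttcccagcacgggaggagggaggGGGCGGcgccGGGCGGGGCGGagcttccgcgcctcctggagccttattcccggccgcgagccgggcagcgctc
ERBB2, chr17:39687844-39688093, plus strand: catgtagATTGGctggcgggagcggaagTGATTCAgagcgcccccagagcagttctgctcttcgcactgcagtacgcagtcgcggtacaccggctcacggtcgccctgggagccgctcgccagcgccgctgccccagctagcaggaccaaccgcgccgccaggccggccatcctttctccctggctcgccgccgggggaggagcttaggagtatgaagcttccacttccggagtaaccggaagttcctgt
ERBB4, chr2:212538803-212539052, minus strand: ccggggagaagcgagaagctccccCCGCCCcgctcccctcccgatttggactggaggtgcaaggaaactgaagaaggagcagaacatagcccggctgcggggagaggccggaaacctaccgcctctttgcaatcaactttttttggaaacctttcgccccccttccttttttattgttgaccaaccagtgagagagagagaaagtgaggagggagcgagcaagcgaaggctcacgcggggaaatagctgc

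The HBEGF window held 5 GC boxes, of which the last pair shares a base, and no CRE core, AP-1, CCAAT or TATA match, with a GC content of 76.4% against a median of 58.0% over all 35116 windows. The ERBB2 window held an AP-1 match 222 to 216 bases before the start and a CCAAT box on the opposite strand at 243 to 239. The ERBB4 window held 1 GC box, at 226 to 221 bases before the start. Of the windows not shown, 1 of the 2 of TGFA held a CRE core (154 to 150 bases before the start), that of EREG a CRE core (125 to 121) and that of AREG the full element (65 to 58), while those of ERRFI1 and EGFR held neither. Of all windows, 21.2% held a CRE core, 1.65% the full element, 6.57% an AP-1 match, 42.6% a GC box, 32.0% a CCAAT box and 10.7% a TATA box. A match of letters is not a binding site, and no factor was measured at these windows.

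Of the 37 probe sets, 14 were called in at least 1 of the 9 comparisons and 23 in none, and 6 of the 9 genes had a called probe set. In LHR+/LHR-, 6 were called (3 up, 3 down), or 16.2%, against 3.36% of all probe sets. Against LHR+ cells without LH, 2 were called at 1 h (5.41%, all probe sets 0.481%), 3 at 4 h (8.11%, all 1.89%), 1 at 8 h (2.7%, all 1.52%) and 7 at 20 h (18.9%, all 7.06%). Between successive times, 2 were called in LH4/LH1 (5.41%, all 1.52%), 4 in LH8/LH4 (10.8%, all 1.17%) and 8 in LH20/LH8 (21.6%, all 4.27%), and 8 were called in LH20/LHR- (21.6%, all 8.89%). Probe sets of a gene share its transcripts, so these shares rest on 1 to 5 genes per comparison. The genes were chosen with earlier results known, so the shares are a description and not a test of enrichment. The median log2 fold change over the 37 probe sets lay between -0.26 and 0.15 in these comparisons, and over all probe sets between -0.03 and 0.02, with calls in both directions in 6 of the 9.

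**Figure D1:**
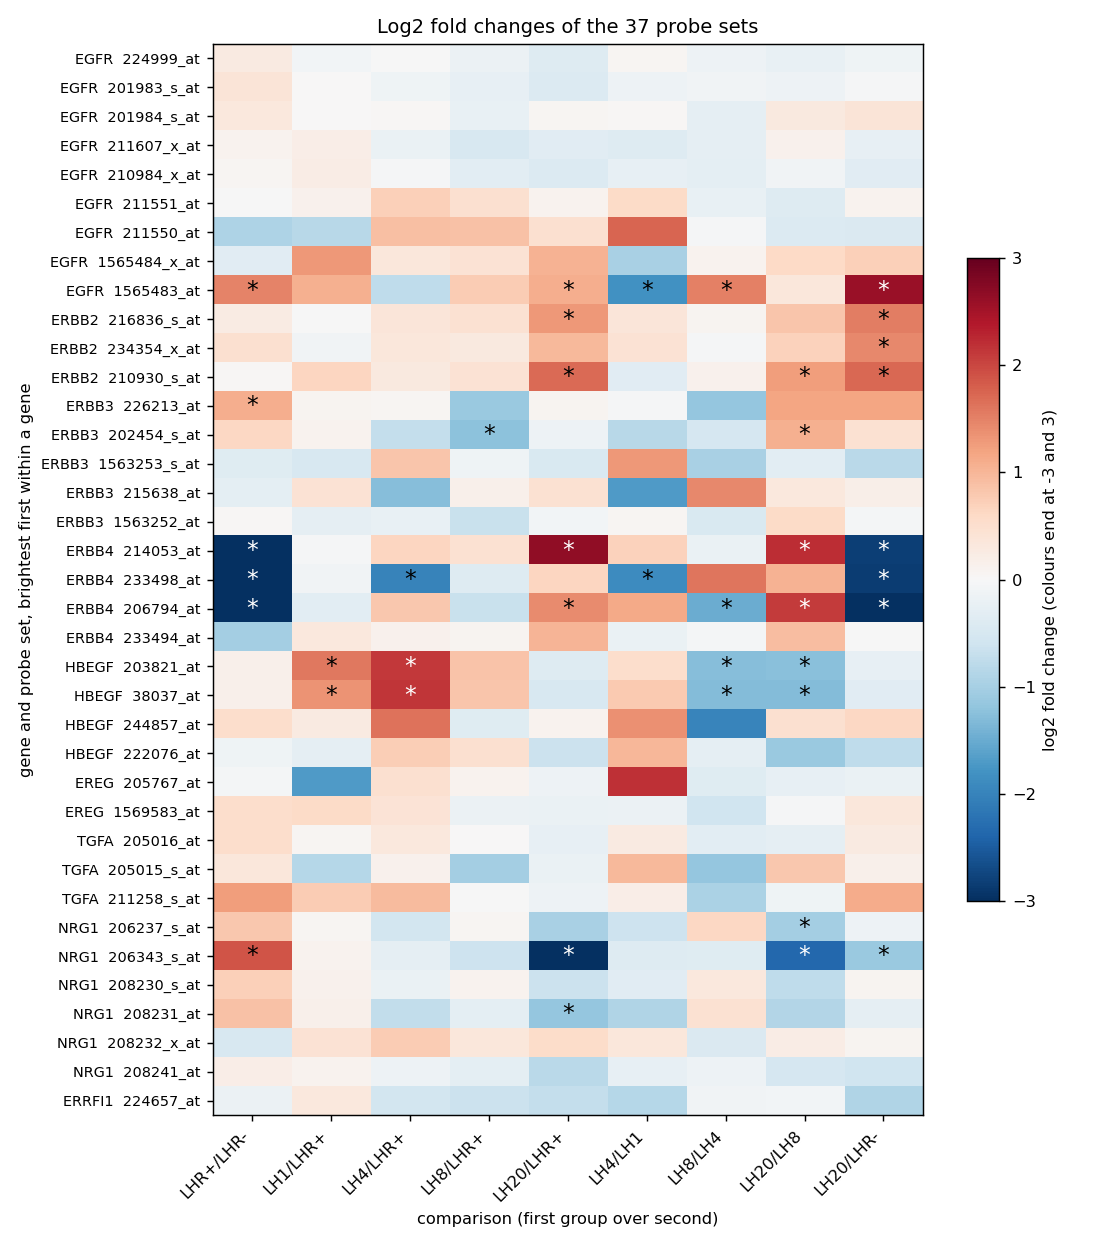
Log2 fold change (colour) of each of the 37 probe sets (rows, by gene) in the 9 comparisons (columns, first group over second), where asterisks mark called probe sets. Called rises at LH1 and LH4 are those of the HBEGF probe sets 203821_at and 38037_at, the ERBB2 and ERBB4 rises stand in the LH20 columns, and the dim EGFR probe set 1565483_at is the only EGFR row with asterisks.

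HBEGF, the heparin-binding ligand of EGFR and ERBB4 (chromosome 5), was the only gene of the set to rise at 1 h and at 4 h. Its brightest probe set, 203821_at, gave 410, 437 and 309 in LHR+ cells, 1049, 1368 and 1061 at LH1, 1552, 1865 and 1588 at LH4, 753, 672 and 640 at LH8, and 220, 333 and 330 at LH20, against 413, 311 and 317 in LHR- cells. The arrays of LH1, LH4 and LH8 lay above all arrays of the other groups and did not overlap each other, while those of LH20, LHR+ and LHR- overlapped. The log2 fold change was 1.59 at LH1 (SE 0.19, adjusted p = 0.000799) and 2.12 at LH4 (SE 0.19, adjusted p = 1.4e-05), a 4.35-fold increase with n = 3 arrays per group. At LH8 it was 0.85 (adjusted p = 0.0247), below the fold threshold, and at LH20 -0.40 (adjusted p = 0.186).

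The return was itself called, with log2 fold changes of -1.28 in LH8/LH4 (adjusted p = 0.00293) and -1.24 in LH20/LH8 (adjusted p = 0.000799). A separate probe set, 38037_at, gave 324, 341 and 310 in LHR+ cells, 775, 904 and 817 at LH1, and 1539, 1427 and 1325 at LH4. Its log2 fold changes were 1.35 at LH1 (SE 0.13, adjusted p = 0.000126) and 2.13 at LH4 (SE 0.13, adjusted p = 4.56e-07). Both probe sets thus peaked at LH4. The level of 203821_at minus that of 38037_at within an array was 0.23 ± 0.20 log2 units in LHR+ cells, 0.47 ± 0.11 at LH1 and 0.22 ± 0.19 at LH4 (SD, n = 3). The LH1 arrays lay above the LHR+ arrays (exact two-sided permutation p = 0.1, the smallest that 3 against 3 allows), and the LH4 arrays overlapped them. The return was called on 38037_at as well, with log2 fold changes of -1.31 in LH8/LH4 (adjusted p = 0.000218) and -1.30 in LH20/LH8 (adjusted p = 4e-05). At LH20, 38037_at averaged 234 ± 21.7, against 325 ± 15.6 in LHR+ cells (log2 fold change -0.47, adjusted p = 0.0235, below the fold threshold). The remaining probe sets, 244857_at and 222076_at, had means of 14.5 and 4.4 over the 18 arrays and were not called. LHR+ cells averaged 385 ± 67.2 and LHR- cells 347 ± 57.0 on 203821_at (SD, n = 3; adjusted p = 0.758), so before LH the groups overlapped.

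TGFA, another ligand of EGFR, had a much smaller range on its bright probe set, 205016_at. It gave 988, 884 and 864 in LHR+ cells, 952, 1007 and 877 at LH1, 1117, 1108 and 1206 at LH4, 778, 1023 and 980 at LH8, and 753, 772 and 763 at LH20, against 605, 678 and 624 in LHR- cells. The LH4 arrays were the highest and the LHR- arrays the lowest, without overlap with the neighbouring group. LHR+ cells exceeded LHR- cells by 0.52 log2 units (SE 0.11, adjusted p = 0.01), below the fold threshold, and the LH4 and LH20 differences from LHR+ cells, 0.33 and -0.26, had adjusted p = 0.139 and 0.136. The other TGFA probe sets averaged 20.9 and 18.2 and were not called in any comparison.

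EREG, which binds EGFR and ERBB4, was at the low end of the array in all groups. Its brighter probe set, 205767_at, ranged from 3.71 ± 5.48 at LH1 to 13.4 ± 6.72 at LH4, with 8.76 ± 1.59 in LHR+ cells and 9.20 ± 1.52 in LHR- cells (SD, n = 3). All groups next to each other in this order overlapped, and neither EREG probe set was called. At this brightness a change was not detectable unless it was large.

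**Figure D2:**
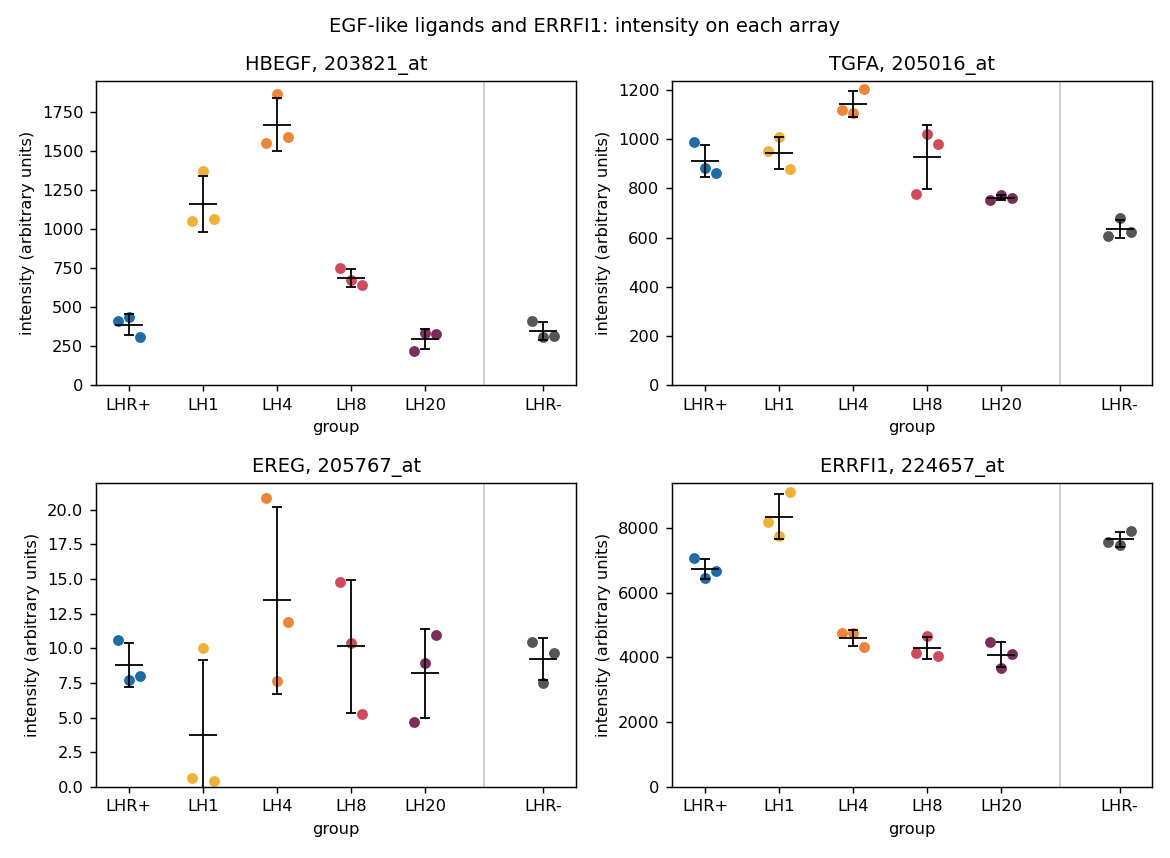
Intensity (linear axis from 0, arbitrary units) of HBEGF, TGFA, EREG and ERRFI1 on each array, with 3 points per group, a bar at the group mean and error bars of 1 SD. HBEGF stands between 1049 and 1865 at LH1 and LH4 and between 220 and 437 in LHR+, LH20 and LHR- cells, and ERRFI1 lies lower at LH4, LH8 and LH20 than in the other groups.

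For NRG1, the ligand of ERBB3 and ERBB4, 5 of 6 probe sets had higher means in LHR+ than in LHR- cells and lower means at LH20 than in LHR+ cells, and 208232_x_at went the other way in both comparisons. Probe set 206343_s_at gave 575, 558 and 656 in LHR+ cells, 673, 614 and 638 at LH1, 475, 548 and 462 at LH4, 381, 321 and 468 at LH8, and 82.7, 69.0 and 71.1 at LH20, against 151, 189 and 145 in LHR- cells. The LH20 arrays lay below all others and the LHR- arrays came next. It rose in LHR+/LHR- by 1.88 on the log2 scale (SE 0.15, adjusted p = 2.99e-06, 3.69-fold) and fell at LH20 (log2 fold change -2.99 against LHR+, SE 0.15, adjusted p = 3.36e-08, 7.94-fold lower). Most of that fall came after 8 h: LH8/LHR+ was -0.62 (adjusted p = 0.0311, below the fold threshold), whereas LH20/LH8 was -2.36 (adjusted p = 6.82e-07). LH20 cells were also below LHR- cells (log2 fold change -1.11, adjusted p = 9.6e-05), a call that was lost without LHR- replicate 2 (-0.99).

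The brightest NRG1 probe set, 206237_s_at, gave 654, 612 and 653 in LHR+ cells, 739, 545 and 739 at LH1, 470, 413 and 422 at LH4, 635, 624 and 740 at LH8, and 332, 327 and 318 at LH20, against 348, 345 and 404 in LHR- cells. Its LH4 arrays lay below those of LHR+, LH1 and LH8, so that the level was lower at 4 h and 20 h but not at 8 h. The log2 fold change was 0.81 in LHR+/LHR- (adjusted p = 0.00115, 1.75-fold). In LH20/LHR+ it was -0.97 (adjusted p = 9.54e-05, 1.96-fold lower). Both were below the fold threshold. LH20/LH8 was called at -1.03 (adjusted p = 0.000146), and this call was lost without LH8 replicate 3 (-0.95).

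The gap between these probe sets was measured within each array. The level of 206343_s_at minus that of 206237_s_at was -2.12 ± 0.12 log2 units at LH20, -0.10 ± 0.10 in LHR+ cells and -1.18 ± 0.30 in LHR- cells (SD, n = 3). LH20 thus differed from LHR+ by -2.02 and LHR+ from LHR- by 1.08, with no overlap of arrays in either case and an exact two-sided permutation p = 0.1, the smallest that 3 against 3 allows. NRG1 is transcribed from several promoters into many isoforms, and which isoforms each probe set detects was not tested here.

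Of the dimmer NRG1 probe sets, 208231_at fell at LH20 to 42.5 on average, against 98.0 in LHR+ cells (log2 fold change -1.16, adjusted p = 0.0126), a call lost without LHR+ replicate 1 (-0.90). Probe set 208230_s_at averaged 109 at LH20 and 172 in LHR+ cells (log2 fold change -0.64, adjusted p = 0.0384, below the fold threshold). Probe set 208232_x_at averaged 51.3 at LH20 and 35.7 in LHR+ cells, in the opposite direction (0.55, adjusted p = 0.304), as it did in LHR+/LHR-, with 35.7 in LHR+ cells and 51.0 in LHR- cells (-0.47, adjusted p = 0.493), and 208241_at was not called. Of the 6 probe sets, 5 were lower at LH20 than in LHR+ cells, 4 of them with an adjusted p under 0.1, and 2 were called.

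**Figure D3:**
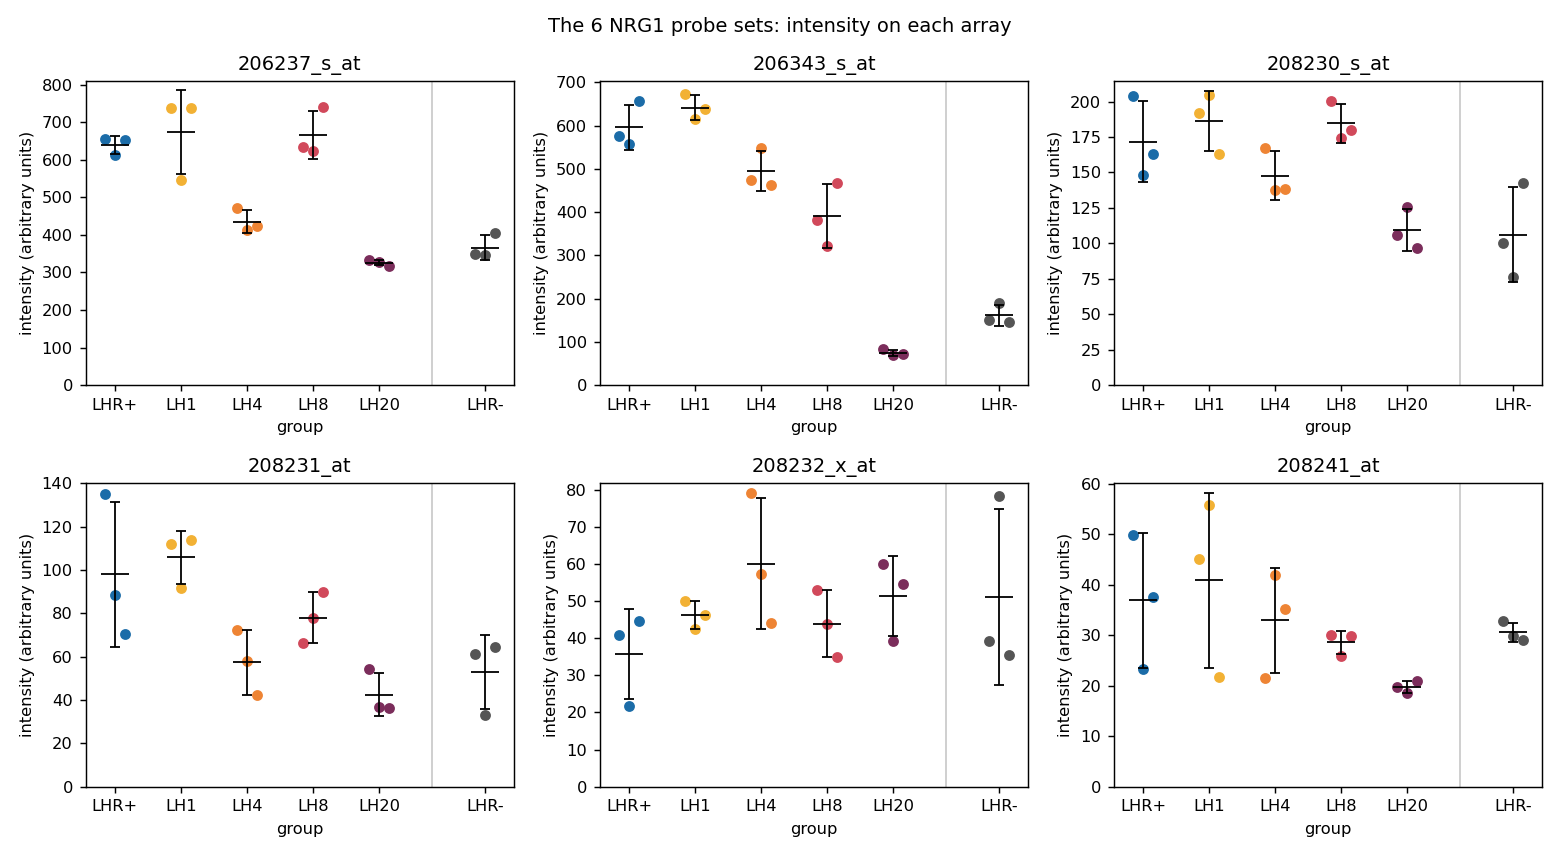
Intensity (linear axes from 0, arbitrary units) of each of the 6 NRG1 probe sets on each array, with 3 points per group, a bar at the group mean and error bars of 1 SD. At LH20 206343_s_at averages 74.3 and 206237_s_at 326, against 596 and 640 in LHR+ cells, and 208232_x_at shows no lower level at LH20.

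ERBB4, a receptor of neuregulins and HBEGF (chromosome 2), had the largest differences of the set. Probe set 214053_at gave 71.5, 39.5 and 24.2 in LHR+ cells, 23.7, 56.1 and 47.9 at LH1, 71.5, 75.8 and 50.7 at LH4, 46.1, 77.9 and 49.9 at LH8, and 238, 239 and 323 at LH20, against 1937, 1690 and 2003 in LHR- cells. The LHR- arrays lay far above the rest, the LH20 arrays came next, and the other 4 groups overlapped. In LHR+/LHR- it fell by 5.48 on the log2 scale (SE 0.37, adjusted p = 6.99e-07, 44.6-fold lower in LHR+). At LH20 it rose by 2.66 against LHR+ (SE 0.37, adjusted p = 0.000182, 6.31-fold) and by 2.21 against LH8 (adjusted p = 0.00153). It was still lower than in LHR- cells (LH20/LHR- log2 fold change -2.82, adjusted p = 8.69e-05). In bulk samples, fewer cells with the transcript and less of it per cell cannot be told apart.

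Of the other ERBB4 probe sets, 206794_at fell by 4.64 in LHR+/LHR- (adjusted p = 1.38e-05) and 233498_at fell by 3.51 (adjusted p = 0.000795). At LH20 206794_at gave 16.8, 13.7 and 23.7, against 6.0, 3.9 and 8.8 in LHR+ cells (log2 fold change 1.42, adjusted p = 0.0314). That call was lost without LHR+ replicate 2 (1.17, adjusted p = 0.121), without LH20 replicate 3 (1.21, adjusted p = 0.117) and with 16 added before the logarithm (0.61). Probe set 233498_at averaged 33.0 at LH20 and 23.9 in LHR+ cells (0.65, adjusted p = 0.469). It was called down at LH4, where it gave 1.2, 6.8 and 8.3, against 9.8, 39.9 and 21.9 in LHR+ cells (log2 fold change -2.00, adjusted p = 0.0466), in the opposite direction to 214053_at at that time (0.65, adjusted p = 0.467). The LH4 call was lost without LHR+ replicate 2 (-1.54), LHR+ replicate 3 (-1.96) or LH4 replicate 1 (-1.34). Between times, 233498_at was called down in LH4/LH1 (-1.89, adjusted p = 0.0724), lost without LH4 replicate 1 or any 1 LH1 replicate (adjusted p from 0.116 to 0.227). Probe set 206794_at was called down in LH8/LH4 (-1.48, adjusted p = 0.0953), lost without LH4 replicate 1 or 3 or any 1 LH8 replicate (adjusted p from 0.169 to 0.277), and up in LH20/LH8 (2.09, adjusted p = 0.00525), lost with 16 added before the logarithm (0.80). In LH20/LHR- both fell, 206794_at with a log2 fold change of -3.22 (adjusted p = 8.89e-05) and 233498_at of -2.86 (adjusted p = 0.00114). The fourth probe set, 233494_at, averaged 2.4 and was not called.

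DCN (decorin), 1 of 3 fibroblast markers, shared the directions of ERBB4 in LHR+/LHR- and LH20/LHR+. It averaged 16.8 ± 4.04 in LHR+ cells and 163 ± 39.0 at LH20, against 85.0 ± 24.7 in LHR- cells (SD, n = 3). Unlike ERBB4, DCN thus had a higher mean at LH20 than in LHR- cells. PDGFRB went the other way in LHR+/LHR- (200 ± 21.0 in LHR+ cells, 96.8 ± 6.05 in LHR- cells) and ACTA2 was not called. The summed level of the 3 markers was 234 to 287 in LHR+ cells, 338 to 414 at LH20 and 182 to 281 in LHR- cells. The 2 leukocyte markers analysed, PTPRC and CD3E, summed to 5.05 to 9.15 in LHR+ cells, 9.85 to 21.7 at LH20 and 9.53 to 30.3 in LHR- cells, and the endothelial markers PECAM1 and CDH5 to 4.65 to 28.6, 30.5 to 35.3 and 15.3 to 32.7 in the same groups. Of the 11 epithelial markers, EPCAM fell in LHR+/LHR- as ERBB4 did, to 70.3 ± 6.04 in LHR+ cells, against 207 ± 56.5 in LHR- cells (log2 fold change -1.51, adjusted p = 0.00339). At LH20 it averaged 123 ± 9.56 (0.80 against LHR+, adjusted p = 0.0557, below the fold threshold). WT1 had the order of NRG1 206343_s_at over these groups, with 155 ± 19.2 in LHR+ cells, 49.3 ± 5.15 at LH20 and 59.4 ± 14.4 in LHR- cells, and it rose in LHR+/LHR- (1.39, adjusted p = 0.000402) and fell at LH20 against LHR+ (-1.63, adjusted p = 3.74e-05). MUC1 (1.54, adjusted p = 3.97e-06) and CDH1 (1.09, adjusted p = 0.0859) rose at LH20 against LHR+. The part of these markers in the ERBB4, NRG1 and ERBB2 results was not tested.

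ERBB2, the receptor without a known ligand (chromosome 17), was bright throughout and rose at 20 h of LH. Probe set 216836_s_at gave 2732, 2797 and 2971 in LHR+ cells, 2912, 2583 and 2995 at LH1, 3849, 3371 and 3764 at LH4, 3914, 3592 and 4196 at LH8, and 6796, 6928 and 7105 at LH20, against 1974, 2740 and 2524 in LHR- cells. The LH20 arrays lay above all others, and those of LH4 and LH8 overlapped each other and lay above LHR+, LH1 and LHR-. The log2 fold change at LH20 was 1.29 against LHR+ (SE 0.12, adjusted p = 6.18e-06, 2.45-fold) and 1.54 against LHR- (adjusted p = 7.9e-07). The earlier differences from LHR+ were 0.37 at LH4 (adjusted p = 0.127) and 0.46 at LH8 (adjusted p = 0.0526), and LH20/LH8 was 0.83 (adjusted p = 0.000512), all below the fold threshold.

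The 2 dimmer ERBB2 probe sets were also highest at LH20. Probe set 210930_s_at gave 114, 69.8 and 67.3 at LH20, against 41.1, 14.2 and 24.8 in LHR+ cells (log2 fold change 1.69, SE 0.41, adjusted p = 0.0101). Probe set 234354_x_at gave 83.4, 78.6 and 76.6 at LH20, against 30.8, 50.4 and 40.3 in LHR+ cells, which came to 0.98 on the log2 scale (adjusted p = 0.00446), just below the fold threshold. In LH20/LH8 210930_s_at was called up (1.26, adjusted p = 0.0647), and this was lost without LH8 replicate 2 or 3 or LH20 replicate 1 or 2 (adjusted p from 0.102 to 0.209). Against LHR- cells both rose, by 1.73 (adjusted p = 0.00777) and 1.45 (adjusted p = 0.000199).

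EGFR was bright and nearly level. Its brightest probe set, 224999_at, averaged 3060 ± 296 in LHR+ cells, 2908 ± 250 at LH1, 3039 ± 308 at LH4, 2721 ± 340 at LH8 and 2339 ± 161 at LH20, against 2547 ± 197 in LHR- cells (SD, n = 3), and every pair of neighbours in the order of these means overlapped. At LH20 it was lower than in LHR+ cells by 0.39 log2 units (adjusted p = 0.0443), and 201983_s_at by 0.41 (adjusted p = 0.0656), whereas 201984_s_at differed by 0.06 (adjusted p = 0.772). In LHR+/LHR- all of these were higher in LHR+ cells, without overlap of arrays. The differences were 0.26 (adjusted p = 0.265), 0.38 (adjusted p = 0.145) and 0.32 (adjusted p = 0.0948) in that order. In LH20/LHR- they were -0.12 (adjusted p = 0.575), -0.02 (adjusted p = 0.940) and 0.38 (adjusted p = 0.0188). None of these passed the fold threshold, and 6 of the 9 EGFR probe sets averaged under 400. The 1 EGFR probe set with calls, 1565483_at, averaged 5.72 over the 18 arrays. It gave 5.2, 2.9 and 3.9 in LHR+ cells and 1.2, 0.8 and 0.4 in LHR- cells (log2 fold change 1.49, adjusted p = 0.0492), a call lost without LHR+ replicate 1 or 3 and without LHR- replicate 2 or 3 (adjusted p from 0.114 to 0.164). With 16 added before the logarithm its LHR+/LHR- difference was 0.25 (adjusted p = 0.294). It gave 11.8, 6.9 and 10.6 at LH20, above all LHR- arrays (LH20/LHR- log2 fold change 2.59, adjusted p = 0.000554, 6.01-fold). That call was lost with 16 added (0.61) and held in the other 12 of 13 alternatives. Among these 12, dropping the fold threshold cannot lose a call. The probe set was too dim to enter the alternatives with a minimum mean of 16 or the brightest probe set per gene. It was also called up in LH20/LHR+ (1.09, adjusted p = 0.096), lost without any 1 LHR+ replicate or LH20 replicate 1 or 3 (adjusted p from 0.107 to 0.248). It was called down in LH4/LH1 (-1.83, adjusted p = 0.0324), lost without LH1 replicate 3 or LH4 replicate 1 or 3 (adjusted p from 0.129 to 0.145). In LH8/LH4 it was called up (1.52, adjusted p = 0.0863), lost without LH4 replicate 1 or 3 or any 1 LH8 replicate (adjusted p from 0.177 to 0.266).

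ERBB3, the co-receptor with little kinase activity, was dim. Its brightest probe set, 226213_at, gave 46.5, 49.5 and 38.6 in LHR+ cells and 17.6, 25.1 and 19.2 in LHR- cells (log2 fold change 1.09, SE 0.36, adjusted p = 0.0952). That call was lost whichever of these 6 arrays was left out, with adjusted p from 0.122 to 0.23. Probe set 202454_s_at gave 17.7, 23.6 and 12.6 at LH8, against 35.2, 57.7 and 36.5 in LHR+ cells (log2 fold change -1.23, adjusted p = 0.0546), and 226213_at 25.0, 12.7 and 25.8 at LH8 (-1.11, adjusted p = 0.128, not called). The 202454_s_at call was lost without LHR+ replicate 2 or 3 or LH8 replicate 1 or 3 (adjusted p from 0.101 to 0.178). In LH20/LH8 202454_s_at was called up (1.07, adjusted p = 0.0467), lost without LH8 replicate 1 or 3 or LH20 replicate 2 (adjusted p from 0.102 to 0.183). The 3 other ERBB3 probe sets, with means of 22.0 and below, were not called.

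**Figure D4:**
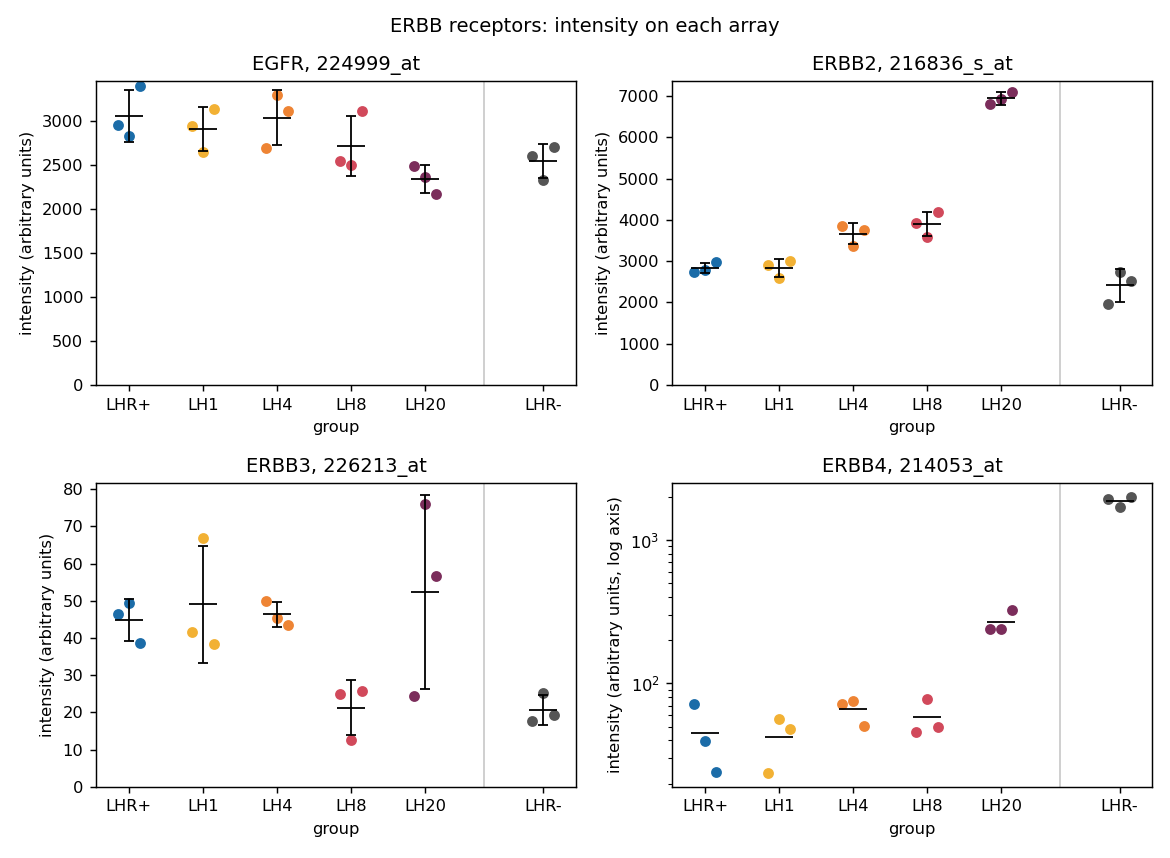
Intensity (arbitrary units) of the brightest probe set of each ERBB receptor on each array, with 3 points per group and a bar at the group mean; error bars are 1 SD on the linear axes, which start at 0, and are left out on the log axis of ERBB4. ERBB2 stands at 6796 to 7105 at LH20, ERBB4 at 1690 to 2003 in LHR- cells and 238 to 323 at LH20, and the EGFR arrays of the 6 groups lie between 2169 and 3393.

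ERRFI1, the intracellular inhibitor of ERBB kinases (chromosome 1), was measured by 1 probe set, 224657_at. It gave 7075, 6453 and 6675 in LHR+ cells, 8185, 7747 and 9129 at LH1, 4747, 4751 and 4312 at LH4, 4143, 4677 and 4029 at LH8, and 4465, 3683 and 4090 at LH20, against 7567, 7474 and 7897 in LHR- cells. The LH4, LH8 and LH20 arrays overlapped and lay below every array of the other 3 groups. The log2 fold changes against LHR+ were 0.31 at LH1 (adjusted p = 0.393), -0.55 at LH4 (SE 0.10, adjusted p = 0.00667), -0.65 at LH8 (adjusted p = 0.00241) and -0.73 at LH20 (adjusted p = 0.000185). LH4/LH1 was -0.86 (adjusted p = 0.000256) and LH20/LHR- -0.91 (adjusted p = 2.09e-05). None reached a fold of 2, so ERRFI1 was not called, although these differences were larger than the spread between replicates.

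The rest of the pathway was counted with 1 probe set per gene, the brightest, beside 4.22% of all 19755 genes called in LHR+/LHR-, 0.319% in LH1/LHR+, 1.99% in LH4/LHR+, 1.46% in LH8/LHR+ and 7.45% in LH20/LHR+. Calls of these listed genes and of the markers were not followed under the alternative settings given at the end. Of 5 other EGF-like ligands measured, 1 was called in LHR+/LHR- and 2 at LH20, all down, and none at LH1, LH4 or LH8. BTC (betacellulin, a ligand of EGFR and ERBB4) averaged 6.95 ± 5.65 at LH20, 33.7 ± 6.12 in LHR+ cells and 170 ± 20.2 in LHR- cells, with log2 fold changes of -2.31 in LHR+/LHR- (adjusted p = 0.0391) and -2.60 in LH20/LHR+ (adjusted p = 0.00914). NRG4, a ligand of ERBB4, averaged 37.6 ± 11.3 at LH20 and 87.8 ± 3.93 in LHR+ cells (-1.24, adjusted p = 0.00176). The median log2 fold change of the 5 ligands was -0.87 in LHR+/LHR- and 0.13 in LH20/LHR+.

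Of 11 genes of ligand shedding and maturation, 1 was called in LHR+/LHR- and none at any LH time against LHR+. It was TIMP3, an inhibitor of ADAM17, at 163 ± 3.93 in LHR+ cells and 3134 ± 90.2 in LHR- cells (log2 fold change -4.25, SE 0.08, adjusted p = 3.43e-12). The proteases ADAM10 and ADAM17 themselves were thus not called, and the median of the list lay between -0.02 and 0.09 in these 5 comparisons.

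Of 13 genes of receptor turnover and inhibition, 1 rose in LHR+/LHR-, 1 at LH4 and 1 at LH20. LRIG1, a membrane protein that promotes the degradation of ERBB receptors, averaged 528 ± 53.0 in LHR+ cells and 176 ± 48.7 in LHR- cells (log2 fold change 1.61, adjusted p = 0.000567). SOCS3, an inhibitor of cytokine receptor signalling, averaged 761 ± 67.7 in LHR+ cells, 2017 ± 468 at LH4, 750 at LH8 and 2076 ± 342 at LH20, with rises of 1.38 at LH4 (adjusted p = 0.000681) and 1.44 at LH20 (adjusted p = 0.000124) on the log2 scale.

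Of 34 adaptors and signalling enzymes measured (44 listed), 1 was called up and 2 down in LHR+/LHR-, 1 up at LH4, 2 up at LH20 and none at LH1 or LH8. At LH20 these were PIK3CD, a catalytic subunit of PI3-kinase (1104 ± 21.4 against 389 ± 64.8 in LHR+ cells, log2 fold change 1.52, adjusted p = 7.14e-06), and PIK3R1, a regulatory subunit (2557 ± 105 against 1240 ± 50.7, 1.04, adjusted p = 1.76e-05). In LHR+/LHR- STAT5A rose by 1.49 (adjusted p = 0.00211), PIK3R3 fell by 1.77 (adjusted p = 0.000373) and PAK6 fell by 2.34 (adjusted p = 0.0381). At LH4 JAK2 rose to 152 ± 31.1, against 73.8 ± 16.5 in LHR+ cells (1.03, adjusted p = 0.0848). The median of this list lay between -0.03 and 0.06.

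Between successive times, where 1.54% of all genes were called in LH4/LH1, 1.1% in LH8/LH4 and 4.33% in LH20/LH8, the same lists gave no call in LH4/LH1, SOCS3 alone in LH8/LH4 (log2 fold change -1.40, adjusted p = 0.00157), and SOCS3 (1.46, adjusted p = 0.00026) and PIK3R1 (1.01, adjusted p = 6.16e-05) in LH20/LH8. In LH20/LHR-, with 10% of all genes called, BTC, NRG4, TIMP3, PIK3R3 and PAK6 fell, and LRIG3, SOCS3, MAPK3, PIK3CD, PIK3R1, STAT3 and STAT5A rose. The largest of these were the differences of BTC (-4.91, adjusted p = 6.56e-05) and TIMP3 (-4.79, adjusted p = 4.12e-13). MAPK3, the kinase ERK1, averaged 1008 ± 65.4 at LH20 and 422 ± 105 in LHR- cells, and STAT3, a transcription factor, 3605 ± 251 at LH20 and 1797 ± 49.9 in LHR- cells.

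The genes whose 6 group means followed a member most closely were taken from 1584 genes that were brighter than the median gene and spanned at least 1 log2 unit between groups. The correlations are a description, with no test. For ERBB4 these were COL5A2 (r = 1.00), SLC22A2 (0.99) and LUM (0.99). For ERBB2 they were ZNF432, NLRC5 and TSNAXIP1 (0.99 each). For HBEGF they were ZNF703 (0.97), SGK1 (0.95) and THBS1 (0.92). For ERBB3 they were ARRDC3 (0.88), SLC25A29 (0.87) and RETREG1 (0.84), and for NRG1 LINC03027 (0.96), LOC100507634 (0.96) and OXTR (0.93). With 6 points that share arrays and scale, many genes reach such values.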

How the data were processed

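RNA of the 18 cultures was amplified as cDNA (NuGEN Ovation V2) and hybridized by the authors, who deposited 1 linear intensity per probe set and array. For the summarization the labels name PLIER and the paper RMA; version, background settings and scaling are not given in the sources used here, and raw scans were not used. All values were above 0, so dim probe sets can differ by large ratios. An array's number of replicates, not a read depth, limits the precision, and n was 3 per group.

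Intensities were analysed as log2(value + 1) with no further normalization or filter. Of the probe sets, 41117 listed 1 gene symbol, 1781 several and 11777 none, after older symbols were updated with RefSeq GRCh38.p14, and 0 of those with several symbols included a member. All probe sets entered a linear model of 6 group means in limma 3.58.1 (lmFit, eBayes; R 4.3.3; the package data.table, version 1.17.8), with the thresholds of the paper, while limma's moderated test replaced ANOVA and Mann-Whitney; an exact rank test of 3 arrays against 3 cannot give a p below 0.1. The fit was tested on simulated data with changes placed only at LH20 and in probe sets with a mean over 16. Changes in dimmer probe sets were outside that test. Figures were drawn with Python 3.11.15 and matplotlib 3.10.9. All member probe sets were described. Of the pathway lists, each gene whose brightest probe set was called was named, and for each member with a called brightest probe set, the 3 genes most correlated with it over group means. The members, lists and rules were chosen with earlier results of these data known. The alternatives were another added constant (16), equal medians, quantile normalization, a minimum mean of 16, no fold threshold, unmoderated variances, a replicate block, the 2 groups compared alone, the brightest probe set per gene, and each replicate left out.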

Additional observations from a re-analysis of the deposited data

How the results depend on the processing

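No log2 fold change of a called member probe set changed sign under any alternative. Of 41 calls, 23 held under every alternative that their probe set entered. Among them were all those of ERBB4 214053_at, ERBB2 216836_s_at and HBEGF 38037_at, and the NRG1 206343_s_at calls in LHR+/LHR-, LH20/LHR+ and LH20/LH8. Dropping the fold threshold cannot lose a call. HBEGF 203821_at lost its LH1 call when only the 2 groups entered the fit (adjusted p = 0.103). The other 18 were lost under 1 to 11 alternatives each, 15 of them on probe sets with a mean under 100 over the 18 arrays. With 16 added before the logarithm, 17 of the 41 calls were lost, all of the lost calls but that of HBEGF 203821_at. Apart from the left-out replicates, counts below are given only where they moved from the main fit by more than a set factor. Comparisons without a count could thus lose calls as well. With 16 added, the number of member probe sets called was 0 in LH8/LHR+, 4 in LH20/LHR+, 0 in LH4/LH1, 2 in LH8/LH4 and 4 in LH20/LH8. With equal array medians it was 1 in LH4/LH1, and with a minimum mean of 16 it was 2 in LH8/LHR+ and 1 in LH4/LH1. Without the fold threshold it was 11 in LHR+/LHR-, 5 in LH4/LHR+, 6 in LH8/LHR+, 14 in LH20/LHR+ and 5 in LH4/LH1, which follows from the looser rule. With the brightest probe set per gene (9 in place of 37) it was 2 in LHR+/LHR-, 1 in LH1/LHR+, 1 in LH4/LHR+, 2 in LH20/LHR+, 0 in LH4/LH1, 2 in LH8/LH4, 3 in LH20/LH8 and 2 in LH20/LHR-. With only the 2 groups compared it was 1 in LH1/LHR+, 0 in LH8/LHR+, 0 in LH4/LH1 and 2 in LH8/LH4. Apart from the change of rule or of the number of probe sets, the cause of these shifts was not tested. Leaving out 1 replicate gave 4 to 6 calls in LHR+/LHR-, 2 to 3 in LH1/LHR+, 2 to 4 in LH4/LHR+, 0 to 1 in LH8/LHR+, 5 to 8 in LH20/LHR+, 0 to 2 in LH4/LH1, 2 to 4 in LH8/LH4, 5 to 9 in LH20/LH8 and 8 to 9 in LH20/LHR-.

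The deviations of same-numbered arrays from their group means had correlations from -0.20 to 0.22 (45 pairs, 13 over 0.1). Arrays of different numbers were not compared in this way, so whether the numbers pair the samples was not settled. With the replicate number as a block, 3 of the 41 calls were lost, those of ERBB3 226213_at in LHR+/LHR- (adjusted p = 0.118) and of EGFR 1565483_at in LH20/LHR+ (adjusted p = 0.135) and LH8/LH4 (adjusted p = 0.138).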
